A study of Homo sapiens with 16 samples.

Results

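IL13RA2, the decoy receptor of IL-13, was measured with the chains and the transcription factor of the signalling receptor for IL-4 and IL-13 in 16HBE cells, an immortalised human bronchial epithelial cell line. The members were IL13RA2, IL13RA1, IL4R, IL2RG and STAT6, and every array probe annotated with one of these symbols was taken. They are 5 of the 42665 gene names on the array, with 9 of its 58201 probes. IL13RA2 was chosen by its measured signal, which rose with HGF in cells with MET exon 14 skipping, so its values in comparisons that use those arrays are given as a description, without a test. The other members were chosen for their place in the receptor.

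RNA was hybridised to 16 single-colour Agilent arrays, 4 for each of 4 groups. 16HBE-WT cells carry wild-type MET and received no HGF. 16HBE-WT+HGF cells were treated with 20 ng/mL of HGF for 24 h. The titles of this group read YY in place of WT, and its place rests on the description and genotype that the labels give. 16HBE-ex14 and 16HBE-ex14+HGF cells, without HGF and with the same dose and time, came from clone F, in which CRISPR/Cas9 editing made MET skip exon 14. All groups were starved of serum for 2 h beforehand and carry the immortalisation of the parent line. The ex14 groups are a single clone, so the MET edit and other properties of the clone cannot be told apart. The arrays lay on 2 slides with 2 rows each, and every row held 1 array of each group. The study's methods state cultures 1 week apart, but the files do not tie arrays to cultures. Replicates are numbered by slide and row, and p-values measure the spread between these arrays.

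IL-4 and IL-13 share a receptor on epithelial cells made of the IL4R and IL13RA1 chains, which activates JAK kinases and then STAT6. On lymphocytes IL4R pairs with IL2RG, the common gamma chain, which serves IL-4 but not IL-13. IL13RA2 binds IL-13 tightly, has a short intracellular tail without a JAK binding site, and takes the ligand away from the signalling receptor. In airway epithelium the pathway is known for mucus production and for eosinophil-attracting chemokines. IL13RA2 has also been described as a receptor for the chitinase-like protein CHI3L1, with TMEM219 as its partner.

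The finding on IL13RA2 rests on a single probe of 60 bases, A_23_P85209, which the array annotation places at chrX:114238591-114238650 (hg19, minus strand). IL13RA1 had 2 probes, IL4R had 3, IL2RG had 2 and STAT6 had 1. The probe of IL13RA2 and the IL13RA1 probe A_24_P288685, at chrX:117892164-117895118 on the plus strand, are shown because they tell the decoy from the signalling chain. The annotated span of the IL13RA1 probe is 2955 bases, so its 60 bases cross a splice junction. For IL13RA2 the first 30 bases are given, and capitals mark the longest stretch that any probe of another gene on the array shares on either strand.
IL13RA2 A_23_P85209, bases 1 to 30: ataCATGAAGACTTTCCatatcaagagaca
IL13RA1 A_24_P288685: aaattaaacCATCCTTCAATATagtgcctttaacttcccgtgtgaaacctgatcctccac
That stretch was 14 bases for IL13RA2, shared with a probe of EMCN, and 13 bases for this probe of IL13RA1. Over the 9 member probes it was between 13 and 16 bases. Between probes of different members the longest shared stretch was 8 bases.

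Values are log2 signals relative to the 75th percentile of the array, so that 0 is the level of the probe at that percentile. The scanner software marks a spot that is well above the local background, and the lowest value so marked lay between -4.95 and -3.77 over the 16 arrays. Between 49% and 60.3% of the probes on an array carried the mark. Levels of different probes are not set against each other, since probes differ in how well they bind. Arrays give no counts, so their number limits the precision. A lower signal from a culture can mean fewer cells with the transcript or less of it in each cell, which cannot be told apart here. MET itself lay between 4.82 and 5.26 on all arrays, with a probe outside exon 14 that does not read the edit, and both HGF probes were below background on every array. The epithelial markers EPCAM, CDH1, KRT8, KRT18 and KRT19 were well above background on all 16 arrays. The summed fibroblast markers lay between -0.84 and 0.07 in 16HBE-WT and between -1.58 and -0.95 in 16HBE-ex14, with COL1A2 and DCN below background on every array. LUM, a fibroblast proteoglycan, was well above background on 4 of 4 arrays of each wild-type group and on 0 of 4 of each clone F group. It was at least 3.06-fold higher in 16HBE-WT than in 16HBE-ex14. COL1A1 was above background on every array. Of the leukocyte markers, ITGAM, CD14, CD3E and 2 of the 5 PTPRC probes were above background on every array. CD3E was called lower in the clone without HGF (-0.98, adjusted p of 0.024 in limma). For both lists the part in the results on the members, IL2RG included, was not tested.

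On the 16HBE-ex14+HGF arrays IL13RA2 stood at -3.15, -2.66, -2.14 and -1.90 for replicates 1 to 4, well above background on 4 of 4. On the 16HBE-ex14 arrays it stood at -5.48, -5.39, -5.10 and -6.48, with the mark on 0 of 4. All stimulated clone F arrays lay above all unstimulated ones. The mean of the stimulated arrays was -2.46 ± 0.56 (SD, n = 4), at least 4.26-fold above the lowest signals that carried the mark on the unstimulated arrays. That bound takes, for each dim array, the higher of the probe's own signal and the lowest signal well above background there. The lowest marked signal is not a strict limit. On 16HBE-WT+HGF replicate 1 IL13RA2 lay at -4.20, above the lowest marked signal of -4.33, and was not marked. In the HGF comparison within 16HBE-ex14 cells 8.84% of the tested probes had groups that did not overlap, and nothing is read from this for the gene that chose the comparison.

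On the 16HBE-WT arrays IL13RA2 stood at -6.20, -4.42, -6.32 and -6.43, without the background mark on any array. On the 16HBE-WT+HGF arrays it stood at -4.20, -4.51, -3.98 and -4.76, also without the mark. Of the WT values, 3 were the surrogate that the software puts in place of a signal smaller than its error, and the fourth, that of replicate 2, fell inside the range of the stimulated arrays. The difference between these groups uses no clone F array, but the probe entered the test through the 16HBE-ex14+HGF arrays, which also add to the estimate of the spread. It was not called, and no fold change or p is given, since both groups were below background. HGF in 16HBE-WT cells called 0% of the 34599 tested probes in limma, while 1694 (4.9%) had an unadjusted p below 0.05. Whether HGF moves IL13RA2 in wild-type cells was therefore not measurable on this probe.

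Against the wild-type cells given HGF, the stimulated 16HBE-ex14 arrays were at least 3.12-fold higher for IL13RA2, and against unstimulated wild-type cells at least 3.55-fold higher. With another background correction, normexp with an offset of 50 units, the 3 bounds were between 1.19 and 1.5. The levels ordered the groups as 16HBE-ex14+HGF first, with the other 3 groups below background and without an order among them. A probe with the mark on all 4 16HBE-ex14+HGF arrays and on no other array was rare, at 24 of 58201 probes or 0.0412%. IL13RA2 had been picked for a contrast that shares this pattern, so the count places it among such probes and tests nothing.

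**Figure D1:**
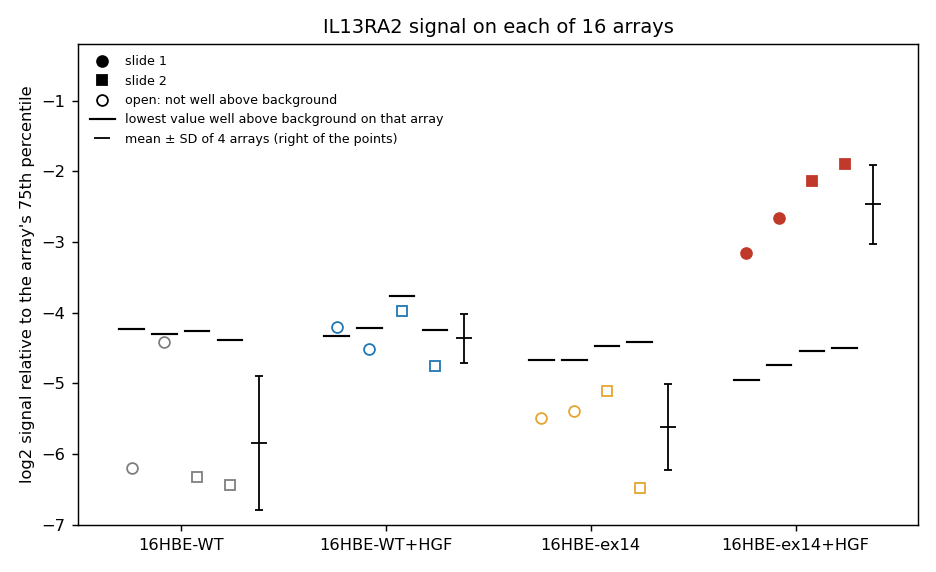
Log2 signal of the IL13RA2 probe relative to the 75th percentile of each of 16 arrays, by group, with circles for slide 1 and squares for slide 2, open where the probe was not well above background. The short lines are the lowest value well above background on that array and the bars at the right are mean ± SD of 4 arrays, and the 4 arrays of 16HBE-ex14+HGF, from -3.15 to -1.90, are the filled points.

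IL13RA1, the chain that joins IL4R to form the signalling receptor, was well above background on every array with both probes. Its brighter probe, A_24_P280113 at chrX:117928406-117928465 (plus strand), read 3.79, 3.71, 3.87 and 3.90 in 16HBE-WT and 3.74, 3.73, 3.68 and 3.85 in 16HBE-WT+HGF. In 16HBE-ex14 it read 3.64, 3.86, 3.89 and 4.06, and in 16HBE-ex14+HGF it read 3.72, 3.77, 3.81 and 3.78. The 4 groups overlapped. HGF in 16HBE-ex14 cells moved it by -0.10 on the log2 scale with a 95% interval of -0.29 to 0.10, and the junction probe A_24_P288685 by 0.00 with an interval of -0.28 to 0.28. Neither probe passed the test in any comparison, and both intervals in that comparison stay inside the fold limit of 1.5.

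STAT6, the transcription factor that the receptor activates, was read by A_23_P47879 at chr12:57489651-57489710 (minus strand). It stood at 4.02, 3.89, 3.96 and 4.21 in 16HBE-WT, and at 3.82, 3.98, 3.83 and 4.09 in 16HBE-WT+HGF. The 16HBE-ex14 arrays gave 3.77, 4.06, 4.02 and 4.11, and the 16HBE-ex14+HGF arrays 3.93, 3.80, 3.96 and 3.71. The groups overlapped in every comparison. The difference with HGF in 16HBE-ex14 was -0.14, with an interval of -0.37 to 0.09 and an adjusted p from limma of 0.63. Between the genotypes it was -0.03 without HGF and -0.08 with HGF.

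IL4R, the chain that binds IL-4, passed the p limit but not the fold limit between the genotypes with HGF. It was not called in any comparison. Its brightest probe, A_23_P129556 at chr16:27375999-27376058 (plus strand), read 4.72, 4.68, 4.96 and 5.00 in 16HBE-WT and 4.91, 4.93, 4.73 and 4.96 in 16HBE-WT+HGF. The unstimulated clone gave 5.04, 5.13, 5.32 and 5.24, and with HGF it gave 5.33, 5.15, 5.62 and 5.47. Every clone F array lay above every wild-type array at the same treatment. With HGF the difference was 0.51 on the log2 scale (SE 0.12), or 1.43-fold, with a 95% interval of 0.26 to 0.76 and an adjusted p of 0.0058 in limma, which is past the p limit but under the fold limit, so it was not called. Of all tested probes 20.6% passed the p limit alone in that comparison and 23.9% had groups that did not overlap, so this is not unusual between these cells.

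Without HGF the same IL4R probe differed by 0.34 (SE 0.12) with an adjusted p of 0.054, and the groups did not overlap, as for 21.4% of the tested probes. Fitted with a slide block, this p was 0.017. HGF moved it by 0.21 in 16HBE-ex14 (interval -0.04 to 0.46) and by 0.04 in 16HBE-WT (interval -0.21 to 0.29). The test of the difference between these responses gave 0.17 (interval -0.18 to 0.52, adjusted p of 1). Leaving out 16HBE-ex14+HGF replicate 2 raised the genotype difference with HGF to 0.59, past both limits.

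A second IL4R probe, A_33_P3349045 at chr16:27357879-27357938, gave 0.48 between the genotypes with HGF (interval 0.11 to 0.84, adjusted p of 0.062). In 16HBE-WT+HGF it ranged from -2.55 to -1.92 and in 16HBE-ex14+HGF from -1.96 to -1.60, so the groups overlapped. The third, A_33_P3395947 at chr16:27352462-27352521, was close to background, from -4.33 to -3.55 in 16HBE-WT and from -3.27 to -2.68 in 16HBE-ex14+HGF. Its 4 16HBE-WT+HGF arrays, from -3.40 to -3.14, lay above its 4 16HBE-WT arrays. Such a gap between groups was found for 2.62% of the tested probes, and the limma difference of 0.55 had an adjusted p of 0.892. Without HGF the clone was 0.45 higher on this probe (adjusted p of 0.121), and the difference was 0.59 and called when 16HBE-ex14 replicate 2 was left out. The 3 probes thus leaned the same way between the genotypes, and none was called with the scaling and limits used here. With median scaling the first was called between the genotypes with HGF at 0.61, and with normexp at 0.60.

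IL2RG was read by a probe well above background on every array, A_33_P3290394 at chrX:70327271-70327330 (minus strand), and by A_23_P148473 at chrX:70328480-70328539, which was below background on all 16 arrays and was not tested. The first ranged from -2.09 to -1.40 in 16HBE-WT and from -2.39 to -1.50 in 16HBE-WT+HGF. In the clone it ranged from -1.77 to -1.26 without HGF and from -1.87 to -0.90 with HGF, with all groups overlapping. The widest difference was 0.34 between the genotypes with HGF (interval -0.16 to 0.85, adjusted p of 0.354). The probes thus disagree on whether the transcript is measurable, and the levels of IL2RG carry that limit.

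**Figure D2:**
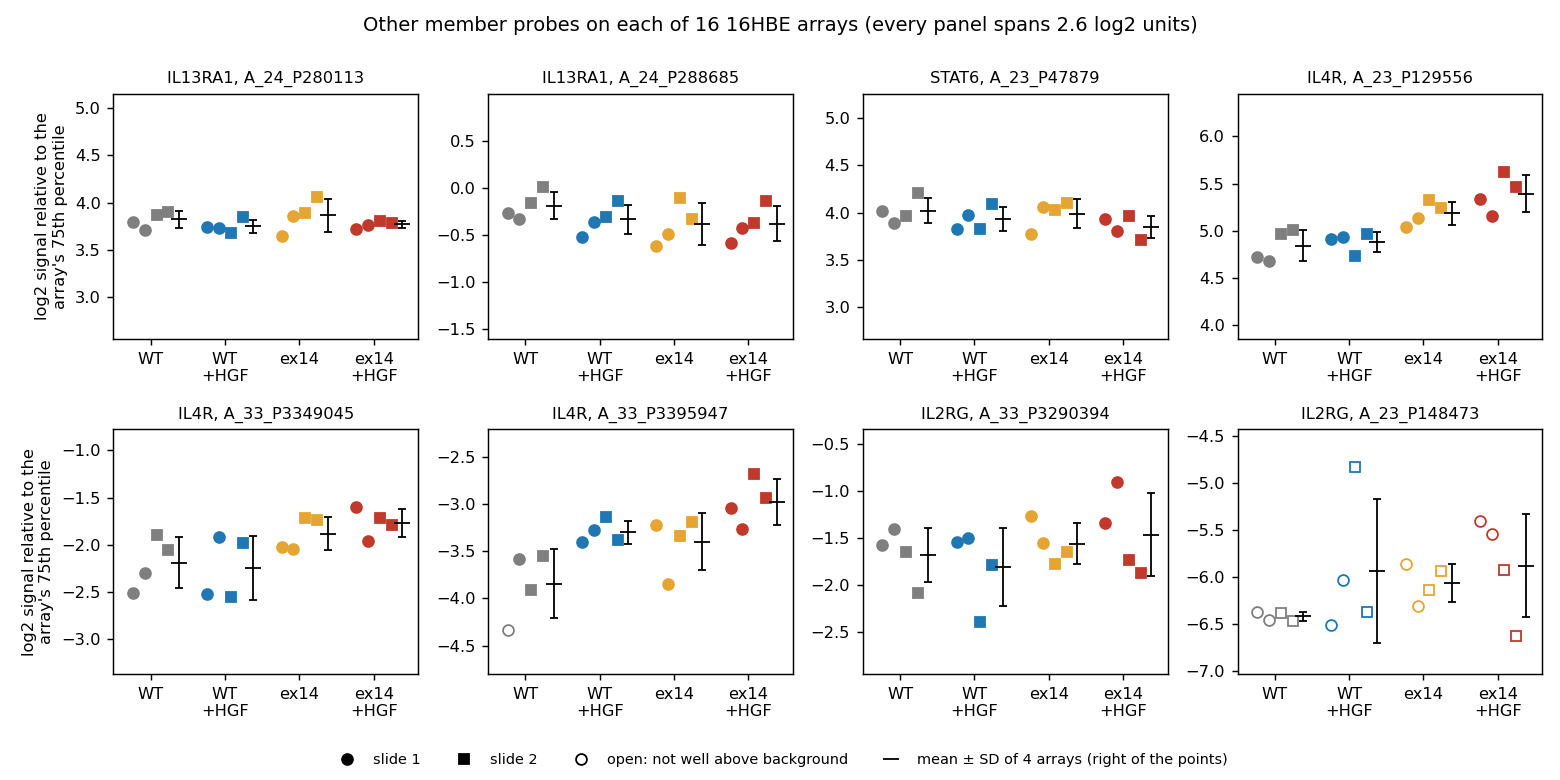
Log2 signal of the other 8 member probes relative to the 75th percentile of each array, by group, in panels of equal height, with circles for slide 1, squares for slide 2, open symbols where a probe was not well above background, and mean ± SD of 4 arrays at the right of each group. The IL4R probe A_23_P129556 runs from 4.68 to 5.00 in 16HBE-WT and from 5.15 to 5.62 in 16HBE-ex14+HGF, while the groups of IL13RA1 and STAT6 overlap.

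Of the 9 member probes 8 passed the filter on dim probes, which asks for the mark on at least 4 of 16 arrays. IL13RA2 passed it through the group in which it was high. HGF in 16HBE-ex14 called 1 of the 8, IL13RA2, where 2% of all tested probes were called and 1.05% were called higher. The genotypes without HGF differed at 0 of the 8, where 9.4% of all probes were called, and with HGF at 1, again IL13RA2, where 10.8% were called and 5.32% were called higher. IL13RA2 was selected on these arrays, so nothing is read from its own calls. The difference between the HGF responses called 0 probes of any gene in limma, with 1600 (4.62%) at an unadjusted p below 0.05. The 7 tested probes of the other members ranged from -0.14 to 0.42 for HGF in 16HBE-ex14, with intervals within -0.40 and 0.82, and their smallest adjusted p there was 0.324. For HGF in 16HBE-WT they ranged from -0.15 to 0.55, with a smallest adjusted p of 0.892. The comparisons share groups of arrays, so they are not independent of each other.

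**Figure D3:**
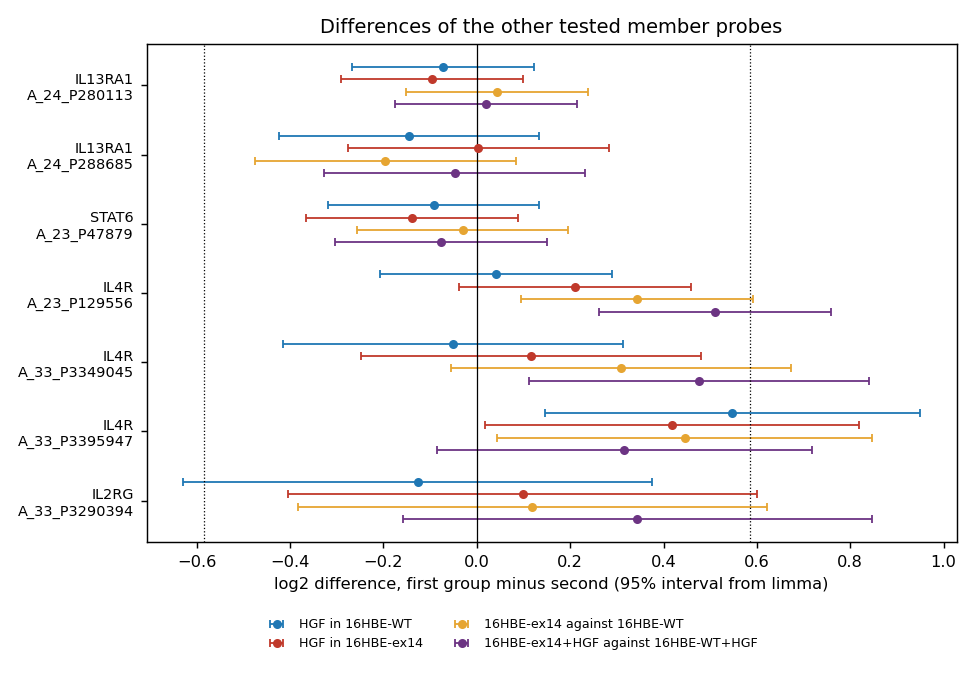
Differences of the 7 tested probes of IL13RA1, STAT6, IL4R and IL2RG on the log2 scale, first group minus second, with 95% intervals from limma, in 4 comparisons, with dotted lines at the fold limit of 1.5. No point lies beyond the dotted lines. The genotype difference of IL4R A_23_P129556 with HGF, 0.51, has an interval above 0, as do other differences of the IL4R probes.

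The genes around the receptor were taken from lists of 45 symbols, of which 35 had a tested probe. HGF in 16HBE-WT called 0 of the 35, with a median difference of 0.00 over their probes against 0.04 over all tested probes. HGF in 16HBE-ex14 called 2, against 2.32% of all 26368 tested gene names. The genotypes called 7 without HGF and 11 with HGF, against 10.9% and 12.5% of all gene names, which are smaller shares than in the lists, and nothing particular to the lists is read from that. Of the 7 genes 4 were higher and 3 lower in 16HBE-ex14, and of the 11 genes 8 were higher and 3 lower. The medians over the probes of these lists were -0.03 without HGF and 0.05 with HGF, close to the -0.02 and 0.00 of all tested probes.

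The ligands IL4 and IL13 were not tested, as their probes carried the background mark on 1 array or none in each group. The JAK kinases bind the receptor tails, JAK1 to IL4R, TYK2 and JAK2 to IL13RA1 and JAK3 to IL2RG. JAK3 fell in the clone with 1 of its 2 tested probes, A_24_P59667, from -0.39 ± 0.17 (SD, n = 4) in 16HBE-WT to -1.40 ± 0.25 in 16HBE-ex14, a log2 difference of -1.01 (adjusted p of 6.5e-05 in limma), and by -1.06 with HGF. The other JAK3 probe differed by 0.00 and 0.13. JAK1 differed by -0.32 without HGF and -0.38 with HGF, past the p limit (0.048 and 0.019), as were 18.4% and 20.6% of all probes, and under the fold limit. JAK2 and TYK2 gave differences between -0.25 and 0.00 in the 4 comparisons and were not called.

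IRS1, a docking protein that IL4R uses beside STAT6, rose in the clone and fell there with HGF. Its probe A_24_P225679 had the background mark on no wild-type array and read -0.85 ± 0.52 (SD, n = 4) in 16HBE-ex14, at least 10.5-fold above 16HBE-WT. In 16HBE-ex14+HGF it read -2.26 ± 0.36, at least 3.67-fold above 16HBE-WT+HGF. The probe passed the filter on dim probes through the clone F arrays alone. Its calls between the genotypes are therefore a description, and no p is given for them. HGF lowered IRS1 in 16HBE-ex14 by 1.41 on the log2 scale: the fitted value was -1.41, with an interval of -2.14 to -0.68 and an adjusted p of 0.038 in limma. A second IRS1 probe, A_24_P802145, was too dim to be tested. IRS2, a docking protein of the same family, differed by -0.08 to 0.12 in the 4 comparisons. SOCS1 and SOCS2, which are feedback inhibitors of JAK signalling, were higher in 16HBE-ex14+HGF than in 16HBE-WT+HGF by 0.60 (adjusted p of 0.02) and 0.61 (adjusted p of 0.0077). The arrays of SOCS1 overlapped between these groups and those of SOCS2 did not. Of all tested probes 23.9% had groups that did not overlap in that comparison and 10.8% were called, so neither is unusual between these cells. SOCS3 gave 0.44 for HGF in 16HBE-ex14 (adjusted p of 0.211). CISH and the phosphatases PTPN6 and PTPN11 were not called.

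Receptor chains that pair with IL2RG moved in both directions between the genotypes. IL7R fell by 0.88 without HGF and by 0.97 with HGF: the fitted values were -0.88 (adjusted p of 0.0091) and -0.97 (adjusted p of 0.0044). IL9R was higher by 0.82 with HGF (adjusted p of 0.0012), IL2RB by 0.71 (adjusted p of 0.046), and IL15RA by 0.82 with 1 of its 4 tested probes (adjusted p of 0.0021). The other 3 IL15RA probes gave 0.13 to 0.29 in that comparison. With slide row as a block IL2RB had an adjusted p of 0.064. The other STAT genes, with 7 tested probes of 6 genes, had no call. TMEM219 differed by 0.07 between the genotypes with HGF and by -0.12 with HGF in 16HBE-ex14, without a call, and CHI3L1 was below background on every array.

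Of 17 genes that IL-13 is known to raise or lower in airway epithelium, 11 had a tested probe. CCL26, an eosinophil chemokine that is a sensitive readout of IL-13, stood at -3.06 ± 0.39 (SD, n = 4) in 16HBE-WT and -2.66 ± 0.38 in 16HBE-WT+HGF. In the clone it stood at -3.02 ± 0.59 without HGF and -2.91 ± 0.54 with HGF, and it was not called in any comparison. SPDEF, a transcription factor of mucous cells, rose with HGF in 16HBE-ex14 from -2.47 ± 0.16 to -1.86 ± 0.19, by 0.61 (adjusted p of 0.014). No other gene of the 11 was called in that comparison, and the tested genes without a call included MUC5AC, CLCA1 and FOXA3. FOXA2, a transcription factor that restrains mucous differentiation, was below background in 16HBE-WT and read -0.01 ± 0.48 in 16HBE-ex14, at least 17.4-fold higher. No p is given for this bound, since the 16HBE-WT values were below background. With HGF FOXA2 read -3.76 ± 0.35 in 16HBE-WT+HGF, with the mark on 3 of 4 arrays. In 16HBE-ex14+HGF it read 1.38 ± 0.30, a difference of 5.13. Without the clone F arrays, where it is high, this probe would not have passed the filter on dim probes. The difference with HGF is therefore a description, and no p is given for it. The mean of FOXA2 was also higher in 16HBE-ex14+HGF than in 16HBE-ex14, without a call.

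DPP4, a cell surface peptidase, was lower in the clone, with differences of -0.81 without HGF (adjusted p of 0.041) and -1.08 with HGF (adjusted p of 0.008). With slide row as a block the first had an adjusted p of 0.06. Within the clone DPP4 read -1.14 ± 0.32 (SD, n = 4) without HGF and -2.03 ± 0.36 with HGF, without a call. TGM2, a transglutaminase, gave 0.72 without HGF (adjusted p of 0.02) and 1.18 with HGF (adjusted p of 0.00072) with the probe A_32_P86763. Its other probe gave -0.35 and -0.30, in the opposite direction and without a call. CCL11, CST1, ITLN1, NOS2 and POSTN were below background on all arrays. The 2 calls with HGF in 16HBE-ex14, IRS1 and SPDEF, depended on single arrays. The count was 0 without 16HBE-ex14+HGF replicate 2 or 3, or without 16HBE-ex14 replicate 2. It was 1 without 16HBE-WT+HGF replicate 1 or 2, 16HBE-ex14+HGF replicate 1 or 4, 16HBE-WT replicate 4, or replicate 1 or 4 of 16HBE-ex14. Without 16HBE-WT replicate 1 the genotypes called 4 of these genes in place of 7.

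**Figure D4:**
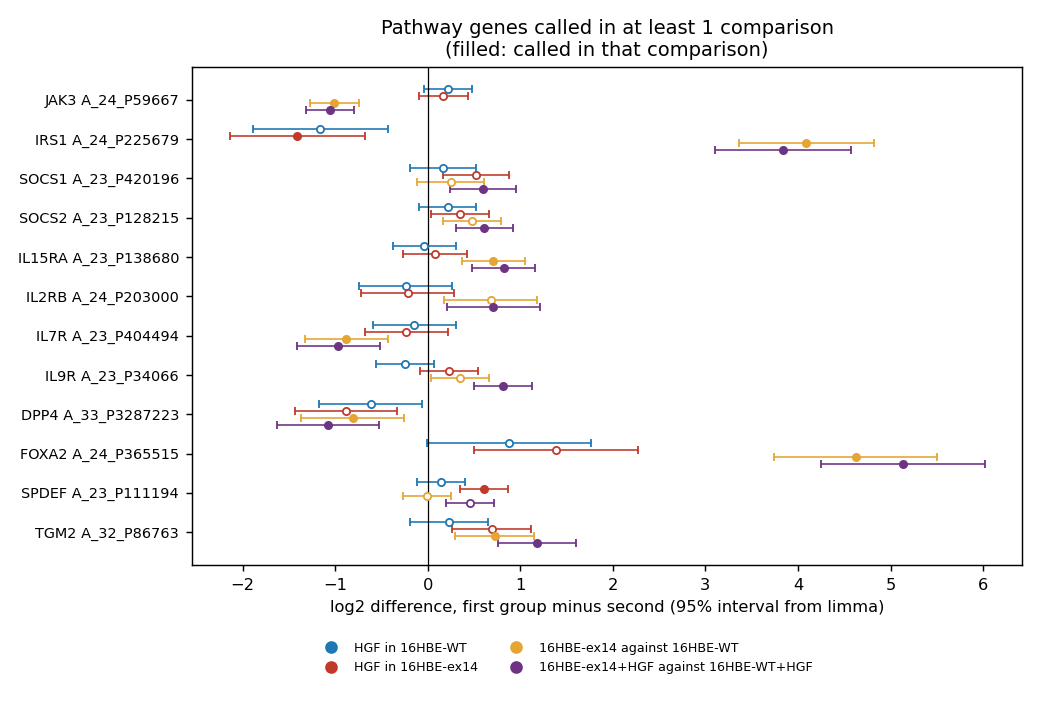
Log2 differences with 95% intervals from limma for the 12 probes of pathway genes called in at least 1 of 4 comparisons, filled where called. The genotype values of IRS1 and of FOXA2 without HGF are fitted against arrays below background, where the bounds of at least 10.5-fold and at least 17.4-fold apply, and the points of IL7R, JAK3 and DPP4 between the genotypes lie below 0.

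Around the IL13RA2 probe on chromosome X the array has 20 probes of other transcripts within 1 Mb, of which 7 were tested. HGF in 16HBE-ex14 called 0 of the 7, where 2% of all tested probes were called. Their median was 0.07, against 0.05 over all tested probes. With so few probes, nothing particular to this region is read from the count. HTR2C, LRCH2, RBMXL3 and LUZP4, the protein-coding genes nearest to it on the array, were below background on all 16 arrays. PLS3, an actin-bundling protein and the nearest protein-coding gene that was measured, lay 645.7 kb away and changed by -0.21 (adjusted p of 0.64). Between the genotypes 1 of the 7 was called in limma, lnc-PLS3-2, at -0.59 without HGF (adjusted p of 0.019) and -0.71 with HGF (adjusted p of 0.0061). Of all tested probes 9.4% and 10.8% were called in these comparisons. The noncoding transcripts PLS3-AS1, DANT2 and lnc-RP1-241P17.4.1-2 and the transcript ENST00000449911 gave the other tested probes, without a call. Probes of SNORA35, lnc-RBMXL3-1, lnc-RP1-241P17.4.1-1, lnc-RP1-241P17.4.1-3 and lnc-PLS3-1 were not tested.

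IL4R lies on the short arm of chromosome 16, where more probes were higher in the clone than over the genome. Within 1 Mb of its brightest probe 2 of 25 tested probes (8%) were called higher with HGF and 4 (16%) without HGF, with medians of 0.37 and 0.26. The calls with HGF include LINC02129, which had the mark on the 16HBE-ex14+HGF arrays alone and passed the filter on dim probes through them. Its difference between the genotypes was 2.12 with HGF and 0.00 without HGF, so nothing is read from that call. Over the arm 13% of 845 tested probes were called higher with HGF, against 5.32% of all probes, with a median of 0.19. Without HGF these shares were 16.1% of the arm and 4.51% of all probes. The IL4R difference of 0.51 stands within that neighbourhood, and the part of the neighbourhood in it was not tested.

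**Figure D5:**
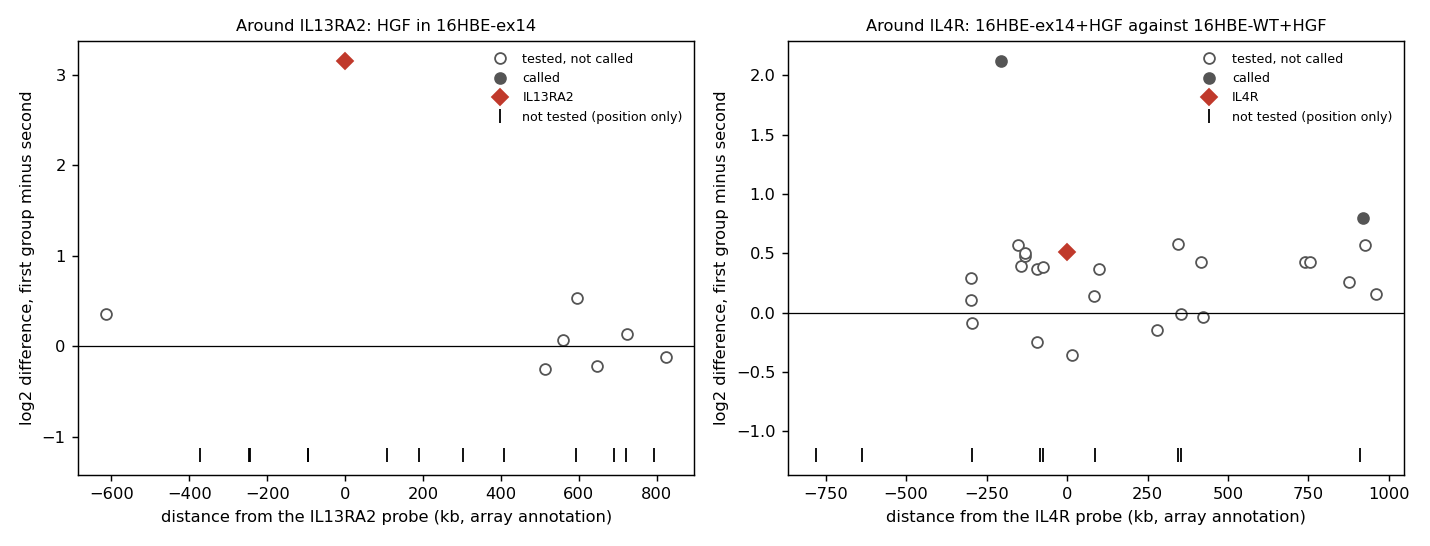
Log2 differences of tested probes within 1 Mb of the IL13RA2 probe (left, HGF in 16HBE-ex14) and of the IL4R probe (right, the genotypes with HGF), against distance in kb on the array annotation, with ticks for probes that were not tested. The 7 tested neighbours of IL13RA2 lie between -0.25 and 0.53 and were not called, while most of the 25 neighbours of IL4R lie above 0.

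The genes whose brightness followed that of IL13RA2 most closely over the 16 arrays were LHX1-DT and LRRC20 (both Pearson r of 0.952), SH2D2A (0.944), HMGA2 (0.937) and SPNS3 (0.936). They were the highest among the named genes of the 34599 tested probes, each gene taken by its closest probe. Probes without a gene name, or named only by an accession, locus number or catalogue label, were left out. Of the 16 IL13RA2 values 12 were below background, and the arrays fall into 4 groups, so the correlations are a description. All 5 genes had their highest mean in 16HBE-ex14+HGF. HMGA2, a chromatin protein of embryonic tissues, went from -2.38 in 16HBE-ex14 to -0.52 in 16HBE-ex14+HGF, and from -2.47 in 16HBE-WT to -1.68 in 16HBE-WT+HGF. LRRC20 went from 1.81 to 2.32 and from 1.68 to 1.94 in the same order. Unlike IL13RA2, these 5 were well above background on every array.

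For IL4R the closest genes were PLAU, the urokinase plasminogen activator (Pearson r of 0.974 over 16 arrays), POLR3A (0.956) and CDC42EP2 (0.956). PLAU went from 2.24 in 16HBE-WT and 2.25 in 16HBE-WT+HGF to 2.82 in unstimulated 16HBE-ex14 cells and 3.31 in 16HBE-ex14+HGF. For IL13RA1 they were CCDC92 (0.907), YAP1 (0.896) and TUG1 (0.885). For STAT6 they were FBXO7 (0.924), RPAIN (0.890) and SHKBP1 (0.873), and for IL2RG they were KIF26B (0.923), TMEM147-AS1 (0.916) and LRRC77P (0.903). The group means of YAP1, closest but one to IL13RA1, stayed between 5.63 and 5.78.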

How the data were processed

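Each array was deposited by the authors as scanner output, whose spot intensity is the processed value of Agilent Feature Extraction 10.7.3.1 per the submitters' processing notes, a linear value after background subtraction and detrending, and not scaled from array to array. The table of the whole series held the same value at all 62976 spots and gave no separate alternative. The authors compared groups with limma, and how they scaled the arrays is not given in the sources used here.

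Here R 4.3.3 with limma 3.58.1 and data.table (version 1.17.8) was used, with Python 3.11.15, pandas 2.3.3 and matplotlib 3.10.9. Spots marked as outliers were left out, log2 was taken, the array's 75th percentile was subtracted, and repeated spots of one probe were replaced by their mean. The test covered 34599 of 58201 probes, those with signal well above background on 4 or more of the 16 arrays. The model had 1 mean per group over 16 arrays with empirical Bayes moderation, with Benjamini-Hochberg adjustment in each contrast. A call needed an adjusted p below 0.05 and a fold change above 1.5, the limits of the study. A gene counted as called if any of its probes was. The fit was tested on simulated data. Gene names and hg19 positions are those of the array annotation.

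The members and the gene lists were chosen with earlier results of these data known. Named were the members, list genes that were called or define a role, MET and HGF, and neighbours of IL13RA2 within 1 Mb. Also named were the 5 or 3 genes most correlated with each member, among those with a gene name of their own. Alternatives were normexp with an offset of 50, quantile, median and E1A spike-in scaling (7 probes), other filters, outlier spots kept, slide or row as a block, another prior, only the arrays compared, no fold limit, and leaving out each array. All 16 samples had a group, and no group was pooled. One cell type marker is not reported here.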

Additional observations from a re-analysis of the deposited data

Results flagged for a closer look

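IL13RA2 in 16HBE-WT replicate 2 stood apart from the other arrays of its group. It read -4.42 while the next value was -6.20, and this gap was 0.88 of the range of the 4 arrays, above Dixon's critical value at the 95% level. Among 36 sets of 4 arrays examined over the member probes it was the 1 that passed, and chance passes about 1 in 20 such sets. The value was below background, and the other 3 arrays of the group carried the surrogate of the scanner software.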

How the results depend on the processing

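Over 27 alternatives that kept the call limits, the 35 log2 differences of the 7 tested probes of IL13RA1, IL4R, IL2RG and STAT6 stayed uncalled in 941 of 945 cases and were called in 4, and these uncalled differences changed sign in 41 cases. With normexp and an offset of 50 intensity units, which by construction shrinks signals of the size of IL13RA2 (29.6 to 58.6 units in 16HBE-ex14+HGF), IL13RA2 lost its call between the genotypes with HGF, with a difference of 0.25, and IL4R A_23_P129556 gained one at 0.60. The bounds for IL13RA2, with alternatives chosen after seeing the data, were then 1.5-fold over 16HBE-ex14, 1.19-fold over 16HBE-WT+HGF and 1.26-fold over 16HBE-WT. Leaving out 1 array at a time gave bounds of 3.74 to 4.99, 2.74 to 3.66 and 3.12 to 4.16. Member probes called between the genotypes with HGF were 2 with median scaling or without a fold limit, and 1 to 2 with an array left out. Without HGF they were 0 to 1 with an array left out.

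Pathway genes called with HGF in 16HBE-ex14, 2 of 35, became 1 with quantile normalization, 0 with spike-in scaling or with the compared arrays alone, 4 with the trended prior, and 0 to 3 with an array left out. Between the genotypes the 7 became 11 without a fold limit and 4 to 8 with an array left out. With HGF the 11 became 5 with normexp and 8 to 13 with an array left out. Leaving out the fold limit can only add calls, and the cause of the other changes was not tested. Scaling to the median moved the median of all probes by -0.12 and -0.16 for HGF in 16HBE-WT and 16HBE-ex14 and by 0.14 between the genotypes without HGF. The share of calls that were higher then went from 52.2% to 24.1% for HGF in 16HBE-ex14, and with spike-in scaling to 41.5%. Between the genotypes it went from 48% to 71.8% with the median, 64.2% with spike-ins and 60% with normexp, and with HGF from 49.1% to 66% with the median and 35.4% without a filter. No paired analysis was possible because the labels tie no array to a culture, so slide and slide row were fitted as technical blocks, and with either of them no member probe gained or lost a call. The lowest signal well above background, between -4.95 and -3.77, limits what could be measured for IL13RA2, IL4, IL13 and CHI3L1.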
